A study of Mus musculus with 2 samples.

Results

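Binding of GATA3 was examined at the loci of 4 genes for helix-loop-helix proteins, Id3, Id2, Tcf3 and Tcf12, in mouse CD4+ T cells. Each locus was a fixed window of the mm9 genome defined by position around the gene, with no bound on its reads: 100 kb for Id3 (chr4:135650000-135750000), 120 kb for Id2 (chr12:25720000-25840000), 70 kb for Tcf3 (chr10:79850000-79920000) and 310 kb for Tcf12 (chr9:71670000-71980000). The 4 windows held 44 of the 64355 sites found in the whole genome, 11 at Id3, 8 at Id2, 5 at Tcf3 and 20 at Tcf12. A site is a stretch where fragments piled up over the surrounding background in at least 1 library.

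The series has 2 libraries of chromatin immunoprecipitated with an antibody to GATA3, 1 per condition, from C57BL/6 mice. Both came from cells that were CD4+, CD25-negative and CD62L-positive when isolated. For 1 library the labels name TGF-β and IL-4, and it is called the TGF-β/IL-4 library here. The shared culture text gives TGF-β1 at 2 ng/ml, IL-4 at 10 ng/ml, anti-CD3 at 1 µg/ml and anti-CD28 at 1 µg/ml. No treatment is named for the other library. The culture text covers TGF-β1 with and without IL-4, so whether that library stands for TGF-β1 alone or for unstimulated cells is not given in the sources used here. How many mice were pooled, and the mice's age, are not given either. The series' title concerns Id3 and IL-9, and its design compares GATA3 binding after TGF-β1 and IL-4. With 1 library per condition there is no replicate check on any difference, so no p-value is given, and the 95% intervals cover counting error only. A larger share of cells with GATA3 at a site and more GATA3 per cell cannot be told apart. Chromatin reads do not show which genes are expressed, so the labelled cell type was not checked against markers.

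GATA3 is a zinc-finger transcription factor that binds the letters GATA and is best known for directing T helper 2 differentiation. Tcf3, which encodes the E2A proteins, and Tcf12, which encodes HEB, are E protein genes. E proteins pair through their helix-loop-helix domain and bind E-boxes (CANNTG) through a neighbouring basic region. Id3 and Id2 have the helix-loop-helix domain but no basic region, so that they pair with E proteins and keep them off DNA. In T cells E proteins act from thymocyte development onwards, and the balance of Id and E proteins is known to shape effector and regulatory T cell fates.

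The promoters below are printed to show which letters GATA3 and E proteins could read next to the start of each gene. They are RefSeq sequences of GRCm38.p6, the 250 bases before an annotated start, with GATA on either strand (GATA or TATC) and CANNTG in capitals. All 4 genes were matched by symbol. The Id3 promoter is chr4:136143572-136143821 (plus strand), the Id2 promoter chr12:25096093-25096342 (minus strand) and the Tcf3 promoter chr10:80433636-80433885 (minus strand). Tcf12 has 3 annotated starts, and the first in the direction of transcription is shown, chr9:72111820-72112069 (minus strand). These positions are not those of mm9, no position was converted, and no mm9 sequence or annotation was used here, so none of the sites described later is placed on these promoters.
Id3: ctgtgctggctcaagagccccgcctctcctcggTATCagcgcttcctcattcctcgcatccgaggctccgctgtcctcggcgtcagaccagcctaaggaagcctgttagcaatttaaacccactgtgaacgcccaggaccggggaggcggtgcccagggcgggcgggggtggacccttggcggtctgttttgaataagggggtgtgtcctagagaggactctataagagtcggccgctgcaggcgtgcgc
Id2: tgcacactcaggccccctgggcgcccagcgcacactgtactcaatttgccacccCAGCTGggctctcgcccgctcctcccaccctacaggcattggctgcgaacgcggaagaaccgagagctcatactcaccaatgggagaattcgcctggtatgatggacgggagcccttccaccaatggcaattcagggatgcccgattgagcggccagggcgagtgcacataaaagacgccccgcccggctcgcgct
Tcf3: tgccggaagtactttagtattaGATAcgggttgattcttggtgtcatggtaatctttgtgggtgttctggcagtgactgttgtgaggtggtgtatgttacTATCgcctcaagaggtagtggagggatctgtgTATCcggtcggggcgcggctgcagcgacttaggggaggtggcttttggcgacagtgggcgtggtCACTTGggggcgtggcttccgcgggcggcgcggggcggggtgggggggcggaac
Tcf12: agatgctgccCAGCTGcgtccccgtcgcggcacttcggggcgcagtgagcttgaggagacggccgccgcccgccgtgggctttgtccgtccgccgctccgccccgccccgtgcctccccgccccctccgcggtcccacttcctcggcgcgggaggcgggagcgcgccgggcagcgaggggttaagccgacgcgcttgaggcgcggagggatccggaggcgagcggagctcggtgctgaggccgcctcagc

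In the 300-bp windows from which these stretches come, which add 50 bases after the start, Tcf3 had 3 matches to GATA, Id3 had 2 (1 of them printed) and Id2 had 0. The 3 Tcf12 promoters had 1, 0 and 2, and the 1 of the first promoter lies in the bases not printed. Matches to CANNTG numbered 1 at Id2, 1 at Tcf3, 0 at Id3 and 1, 2 and 1 at the Tcf12 promoters. Short motifs are common: of 32851 RefSeq promoter windows of this length 57.9% held GATA on either strand and 72.3% held CANNTG. The 2 motifs share no full match, and a match describes letters, not a bound site.

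The 2 libraries held 22963959 reads with no treatment named and 15561681 reads with TGF-β/IL-4, on chromosomes 1 to 19, X and Y. Values are therefore given as RPM, reads per 1000000 such reads of the library. Each library holds at most 1 read per position and strand, so at the fragment length used a point of the genome can be covered by at most 252 fragments. Over the whole genome 8.47% and 12.5% of reads lay in sites, and at sites found in both libraries the median ratio of RPM (TGF-β/IL-4 over no treatment named) was 1.34. Every ratio below has this direction.

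By the main site calls all 4 windows were denser in GATA3 sites than the genome as a whole, and they differed from each other in the strength of their sites. The genome had 2.72 sites per 100 kb of covered sequence. Id3 had 11 per 100 kb, Tcf3 7.14, Id2 6.67 and Tcf12 6.45. The genome value is over all covered sequence and not over windows around genes. General read density differed as well. With no treatment named, all reads came to 103 RPM per 100 kb at Id3, 75.6 at Id2, 123 at Tcf3 and 38.2 at Tcf12. The genome had 42.2. With only sites of at least 2 RPM, averaged over the libraries, the genome had 0.554 per 100 kb, Id3 4, Tcf3 1.43, Id2 0.833 and Tcf12 0.645. Id3 thus had the densest set of moderate sites, while the single site of that strength at Tcf3 surpassed all others in the 4 windows. By a stricter call, q under 1e-05, the genome had 1.20 sites per 100 kb, Id3 6.00, Tcf12 3.87, Tcf3 1.43 and Id2 0.833. Id2, with 1 site left, was then below the genome. The Tcf12 window, the longest, was close to the genome by the bound of 2 RPM and above it by the stricter call.

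**Figure D1:**
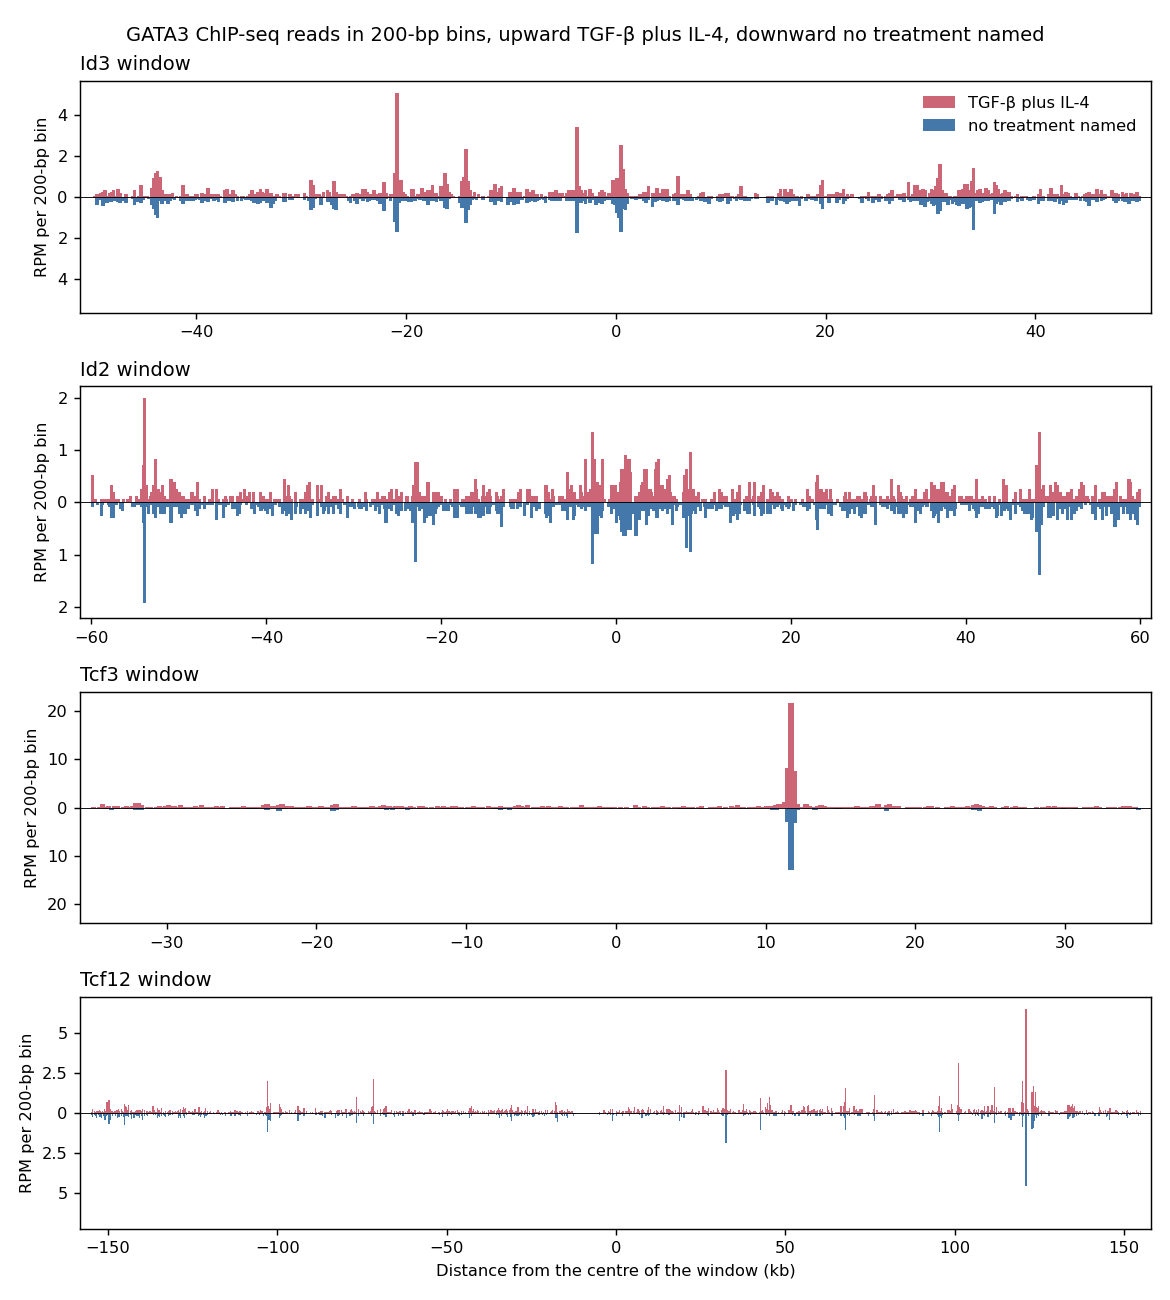
Reads in 200-bp bins across the 4 windows, in RPM, against the distance in kb from the centre of the window. Upward bars are the TGF-β/IL-4 library and downward bars the library with no treatment named, with a separate vertical scale for each window. Id3 has several separate bins up to 5.08 RPM, Id2 none above 1.99 RPM, Tcf3 a single stretch reaching 21.6 RPM, and Tcf12 scattered narrow bins up to 6.49 RPM.

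The Id3 window held a spread of 11 sites, 10 of which had a ratio above 1. Over the genome 74.5% of sites had a ratio above 1. Id3 encodes the inhibitor named in the title of the series. Of the 11 sites, 6 were found in both libraries, 5 in the TGF-β/IL-4 library alone and 0 in the other alone. Over the genome 39.5% of sites were found in both, 43.9% in the TGF-β/IL-4 library alone and 16.6% in the other alone. Finding a site in 1 library alone by itself favours a ratio away from 1, which is why the read numbers are given too. The sites lay a median of 6015 bp apart, with gaps from 2020 to 14360 bp.

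The strongest Id3 site, chr4:135678921-135679270, had 62 reads (2.70 RPM) with no treatment named and 100 reads (6.43 RPM) with TGF-β/IL-4. Its ratio was 2.38 (95% interval 1.72 to 3.32). Its summit stood 10.7-fold above the local background in the first library and 17.2-fold in the second, and the 2 summits lay 20 bp apart. The background in such folds is the rate of the surrounding 10 kb, the site's own reads included, or the genome rate if larger. In strength it ranked 4615 of the 64355 sites of the genome, within the top 7.17%.

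The next Id3 site, chr4:135700291-135700700, near the centre of the window, was less different between the libraries. It had 66 reads (2.87 RPM) and 63 reads (4.05 RPM), a ratio of 1.41 (0.981 to 2.02). The remaining sites of the leading 4 lay on either side of the strongest. At chr4:135696221-135696410 there were 40 reads (1.74 RPM) and 54 (3.47 RPM), a ratio of 1.99 (1.30 to 3.08). At chr4:135656091-135656550 there were 36 (1.57 RPM) and 46 (2.96 RPM), a ratio of 1.89 (1.19 to 3.0). These 4 sites, the only ones of the window at 2 RPM or more, were found in both libraries, and all 4 had the higher RPM in the TGF-β/IL-4 library. At chr4:135700291-135700700 the interval includes 1, so the difference there is within counting error.

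To count as higher, a site needed a ratio of 2 or more with an interval above 1, and to count as lower, 0.5 or less with an interval below 1. Over the genome 25.2% of sites were higher and 3.95% lower by this rule. At Id3 3 of 11 sites were higher and 0 lower. Besides the strongest, these were chr4:135730771-135730940, with 16 and 29 reads and a ratio of 2.67 (1.41 to 5.27), and chr4:135705781-135705920, with 9 and 18 reads and a ratio of 2.95 (1.26 to 7.46). Both were found in the TGF-β/IL-4 library alone. With sites called on 200-bp fragments 1 Id3 site was higher, and with the shared sites of the genome scaled to a median ratio of 1 there were 0. The single Id3 site with a ratio under 1, chr4:135733971-135734150, picked out after its values were seen, had 35 reads (1.52 RPM) and 18 reads (1.16 RPM), a ratio of 0.759 (0.405 to 1.38) whose interval includes 1.

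The Id2 window, around the gene for the second inhibitor, had weaker sites and no site past the size rule in either direction. It had 8 sites, 4 found in both libraries, 3 in the TGF-β/IL-4 library alone and 1 in the other alone. The strongest, chr12:25725951-25726170, had 42 reads (1.83 RPM) with no treatment named and 36 reads (2.31 RPM) with TGF-β/IL-4, a ratio of 1.26 (0.787 to 2.02). Its summit stood 17.1-fold above the local background in each library.

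The other 3 of the leading 4 Id2 sites were almost level between the libraries. The second, chr12:25828451-25828630, had 30 and 21 reads (1.31 and 1.35 RPM), a ratio of 1.03 (0.562 to 1.87). The third, chr12:25777251-25777480, had 28 and 22 reads, a ratio of 1.16 (0.632 to 2.10). The fourth, chr12:25757001-25757290, had 28 and 21 reads, a ratio of 1.11 (0.597 to 2.02). Each interval includes 1 and also includes ratios near 2, so these read numbers do not show whether the sites differ.

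Beside its narrow sites the Id2 window had a broad stretch of raised reads near its centre. It was located as the 5 kb with the most reads outside sites, chr12:25780000-25784999. There the mean 200-bp bin held 0.301 RPM with no treatment named and 0.404 RPM with TGF-β/IL-4, which was 2.20-fold and 3.02-fold the mean of the bins outside sites in the window. The 173 and 157 reads of the stretch gave a ratio of 1.34 (1.07 to 1.67). No site was found within it. The stretch was picked for its reads, so its fold over the window is a description. Such a stretch was not particular to Id2: picked the same way, it held 3.22 times and 2.04 times the window mean at Tcf12, 1.76 and 1.94 times at Id3, and 1.08 and 2.07 times at Tcf3. The Tcf3 stretch surrounds its strong site.

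The Tcf3 window was dominated by a single site, which was among the strongest in the genome. Tcf3 encodes the E2A proteins, the main E proteins of lymphocytes. The site, chr10:79896411-79896960, held 434 reads (18.9 RPM) with no treatment named and 577 reads (37.1 RPM) with TGF-β/IL-4. By RPM it ranked 53 of 64355 in the first library, 20 in the second and 25 on average, within the top 0.0388%. It was the widest site of the 4 windows, at 550 bp, and took 91.9% and 91.7% of all site reads of the window.

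The ratio at this Tcf3 site was 1.96 (1.73 to 2.23), just under the bound of 2. Among the 100 strongest sites of the genome the median ratio was 1.68, and 80% of them lay between 1.43 and 1.96, so the Tcf3 site stood at the upper edge of that range. The limit of 1 read per position holds for those sites too. Where a position holds a read in both libraries, the ratio of RPM there is fixed by the read totals of the libraries. How far this shaped the ratios of the 100 sites was not tested. The Tcf3 site came near this limit. At the summit 228 fragments with no treatment named and 240 with TGF-β/IL-4 were counted, of the 252 that can be. In the central 200-bp bin, from 79896600 to 79896799, 74.2% and 84.0% of positions on either strand held a read, and the ratio was 1.67 (1.42 to 1.96). In the bins on both sides, with between 17.5% and 31.5% of positions filled, the ratios were 2.66 (1.97 to 3.61) and 2.47 (1.83 to 3.37). The ratio was lowest where the positions were nearest to full, and whether the limit lowered it was not tested.

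The shape and mapping of the Tcf3 site were alike in both libraries. At the strongest site 97.9% and 97.6% of reads had the top mapping quality, while over all reads of the libraries these shares were 87.8% and 88.3%. Plus-strand reads made up 47.7% and 50.1%, the strands lay 129 and 142 bp apart, and the summits coincided at the 10-bp resolution used. A shoulder preceded the summit in both libraries, as the profile of the site shows.

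The other 4 Tcf3 sites were weak and were all found in the TGF-β/IL-4 library alone. The second in strength, chr10:79852901-79853030, had 10 and 17 reads (0.435 and 1.09 RPM) and was the single Tcf3 site past the size rule, with a ratio of 2.51 (1.08 to 6.13). With sites called on the pooled libraries, or at a q under 1e-05, 0 Tcf3 sites were higher. The third, chr10:79903111-79903300, had 10 and 15 reads and a ratio of 2.21 (0.930 to 5.51), and the fourth, chr10:79866171-79866280, had 10 and 13 reads and a ratio of 1.92 (0.777 to 4.89). Over all 5 sites the ratio was 1.97 (1.74 to 2.22), which the strongest site sets. As the other 4 became sites only through the library where they were high, their ratios above 1 are no separate result.

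**Figure D2:**
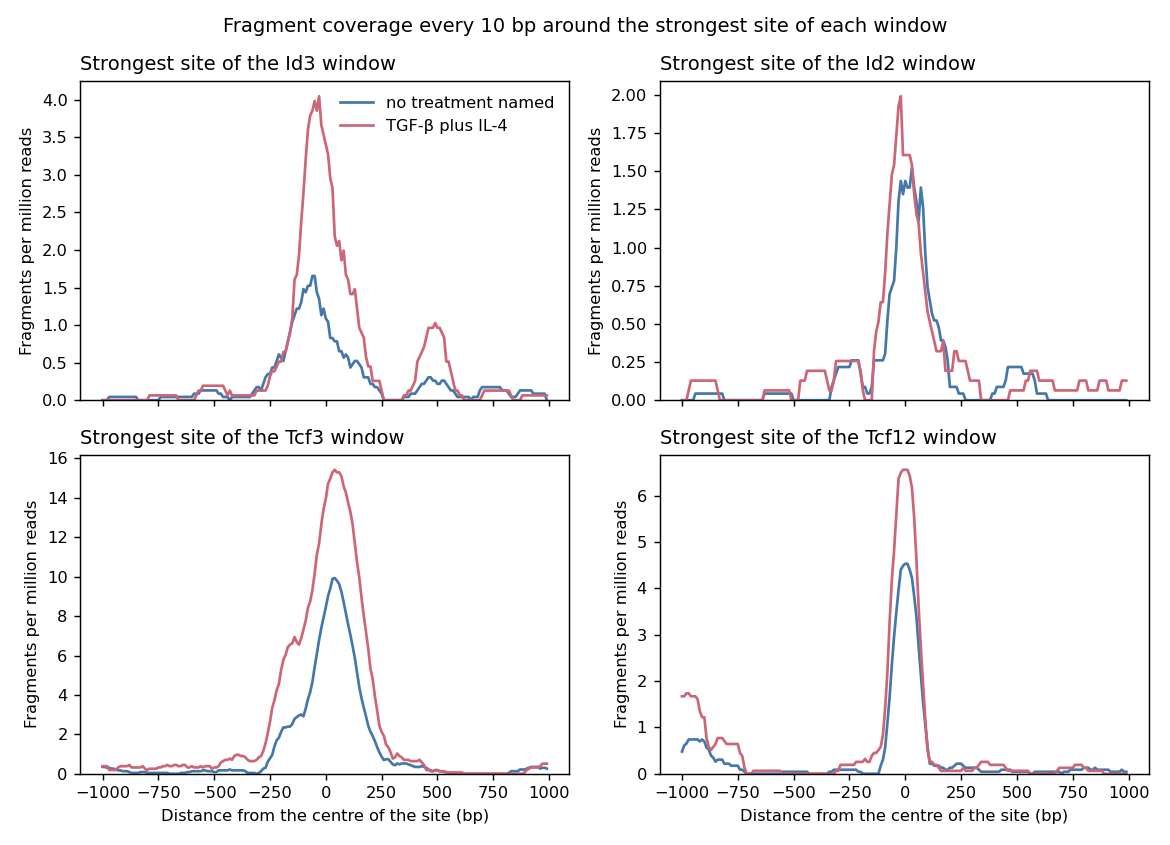
Fragments per 1000000 reads of the library, every 10 bp, within 1000 bp of the centre of the strongest site of each window, with a separate vertical scale for each. The blue line is the library with no treatment named and the red line the TGF-β/IL-4 library. At Tcf3 the curves reach 9.93 and 15.4 fragments per 1000000 reads with a shoulder on the left, at Id3 they reach 1.65 and 4.05, at Tcf12 4.53 and 6.55, and at Id2 1.52 and 1.99.

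The Tcf12 window, for the E protein HEB, held 20 narrow sites, the most of the 4 windows, and the widest range of ratios. A range widens with more sites and fewer reads, and its low end here rests on 9 and 0 reads. Of the 20 sites, 10 were found in both libraries, 6 in the TGF-β/IL-4 library alone and 4 in the other alone. The strongest, chr9:71945951-71946140, had 107 reads (4.66 RPM) with no treatment named and 108 reads (6.94 RPM) with TGF-β/IL-4, a ratio of 1.49 (1.13 to 1.96). It stood 29.8-fold and 25-fold above the local background, and ranked 3215 of 64355 in the genome. The second, chr9:71857401-71857620, had 43 reads in each library (1.87 and 2.76 RPM), a ratio of 1.48 (0.944 to 2.31).

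The third Tcf12 site in strength had the highest ratio of the 44, and was found in the TGF-β/IL-4 library alone. At chr9:71925961-71926210 there were 11 reads (0.479 RPM) with no treatment named and 48 reads (3.08 RPM) with TGF-β/IL-4. The ratio was 6.44 (3.30 to 13.8), and the summit stood 9.01-fold and 28.2-fold above the background. In the first library that background was the genome rate and in the second the local rate, so the 2 folds are not directly comparable. Top mapping quality was given for 100% and 97.9% of its reads. With shared sites scaled to a median ratio of 1 the ratio was 4.80 (2.46 to 10.2). The fourth site, chr9:71721971-71722150, had 29 and 33 reads and a ratio of 1.68 (0.989 to 2.87).

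Of the 20 Tcf12 sites 5 were higher and 1 was lower, against 25.2% and 3.95% of sites over the genome. Besides the third, the higher ones were chr9:71753221-71753460 (21 and 38 reads, ratio 2.67, 1.53 to 4.79), chr9:71944991-71945150 (17 and 29 reads, ratio 2.52, 1.34 to 4.88), chr9:71807061-71807230 (4 and 12 reads, ratio 4.43, 1.34 to 18.8) and chr9:71948861-71948960 (3 and 13 reads, ratio 6.39, 1.76 to 35.0). The last 2 rest on few reads, and their intervals span more than 10-fold. Of the 5, only chr9:71753221-71753460 was found in both libraries. The other 4 were found in the TGF-β/IL-4 library alone, so that their choice favoured a ratio above 1. The lower site, chr9:71738971-71739080, had 9 reads with no treatment named and 0 with TGF-β/IL-4. Against a floor of 3 reads in the TGF-β/IL-4 library (0.193 RPM) it was at least 2.03-fold lower, and the upper limit of its exact interval was 0.748. With a second random thinning of the deeper library, 0 Tcf12 sites were lower.

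Sites at Tcf12 also lay in a close group. The 5 sites from chr9:71944991 to 71948960, a span of 3.97 kb, included the strongest and 2 of the higher ones. Together they held 167 reads (7.27 RPM) and 192 reads (12.3 RPM), a ratio of 1.70 (1.37 to 2.10). No other stretch of the 4 windows had more than 3 sites with gaps of under 5 kb.

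**Figure D3:**
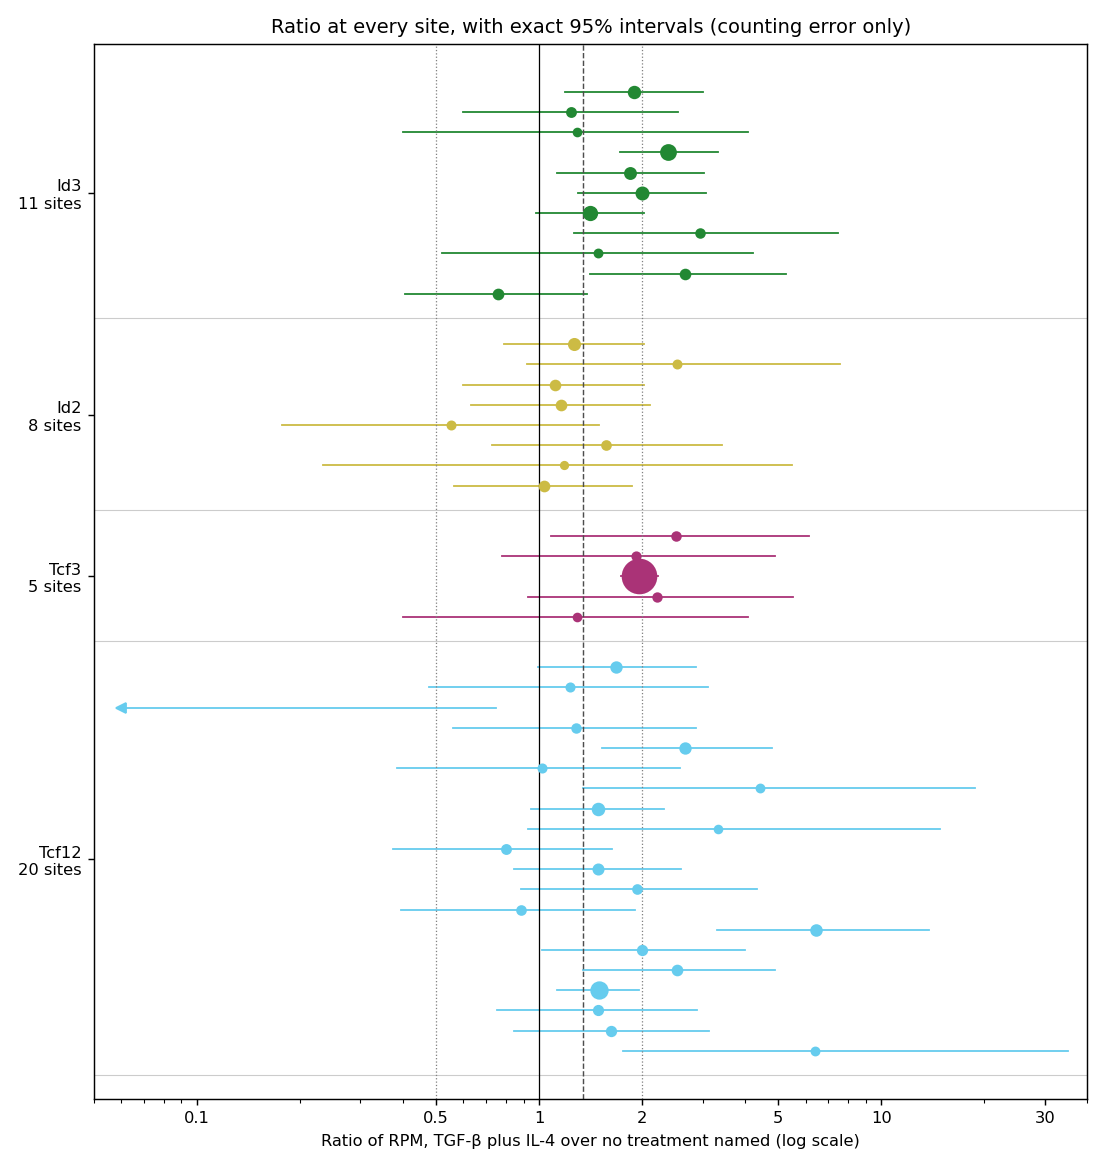
Ratio of RPM (TGF-β/IL-4 over no treatment named, log scale) at each of the 44 sites, in order of position within each window. Circles grow with the RPM averaged over the libraries, bars are exact 95% intervals of counting error, and the arrow is the site with 0 reads in the TGF-β/IL-4 library. Dotted lines mark 0.5 and 2, and the dashed line 1.34, the median of sites shared in the genome. Of the 44 sites, 39 lie right of 1, and the large Tcf3 circle has by far the narrowest interval.

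Over the 4 windows 9 of 44 sites (20.5%) were higher and 1 (2.27%) was lower in the TGF-β/IL-4 library. In the genome 25.2% of sites were higher and 3.95% lower by the same rule, so these counts are close to the background and are no result about the 4 genes. Of the 44, 47.7% were found in both libraries, 40.9% in the TGF-β/IL-4 library alone and 11.4% in the other alone. Over all sites of the genome these shares were 39.5%, 43.9% and 16.6%, so a surplus of sites found with TGF-β/IL-4 alone was general. The median ratio was 1.53 over the 44 sites and 1.58 over all sites. A ratio above 1 was seen at 88.6% of the 44 and at 74.5% of all sites. With shared sites scaled to a median of 1, 3 of the 44 sites (6.82%) were higher, all at Tcf12, and 1 (2.27%) lower, against 11.5% and 8.81% in the genome. That scaling turns a ratio of 1.34 into 1, and the Tcf3 site then had a ratio of 1.46 (1.29 to 1.66) and the strongest Id3 site 1.77 (1.28 to 2.48).

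Summed over sites, the Id2 window differed least between the libraries. Site reads gave 20.6 RPM with no treatment named and 40.4 with TGF-β/IL-4 at Tcf3. They gave 14.5 and 25.7 RPM at Id3, a ratio of 1.78 (1.53 to 2.06), and 18.7 and 32.1 RPM at Tcf12, a ratio of 1.72 (1.51 to 1.96). At Id2 they gave 7.45 and 8.87 RPM, a ratio of 1.19 (0.945 to 1.5). Per 100 kb this was 6.21 and 7.39 RPM at Id2, while all sites of the genome gave 3.57 and 5.26. Whether Id2 differs from the sites of the genome in general was not tested. Site sums include sites found in the TGF-β/IL-4 library alone, which favours ratios above 1. Over sites found in both libraries the ratio was 1.96 (1.73 to 2.23) at Tcf3, 1.75 (1.48 to 2.06) at Id3, 1.54 (1.31 to 1.80) at Tcf12 and 1.22 (0.919 to 1.61) at Id2. Over all sites, of the 6 pairs of windows, the 3 with Id2 had ratios of ratios whose intervals left out 1: Id3 over Id2 1.49 (1.13 to 1.97), Id2 over Tcf3 0.606 (0.466 to 0.787) and Id2 over Tcf12 0.694 (0.531 to 0.906). For Id3 over Tcf3 it was 0.904 (0.746 to 1.10), for Id3 over Tcf12 1.04 (0.849 to 1.26) and for Tcf3 over Tcf12 1.15 (0.958 to 1.37). Over sites found in both libraries Id2 over Tcf12 was 0.794 (0.573 to 1.10), an interval that includes 1, and Tcf3 over Tcf12 was 1.28 (1.04 to 1.56), which leaves it out. Id3 over Id2 was then 1.43 (1.03 to 1.99) and Id2 over Tcf3 0.622 (0.455 to 0.847). With sites called on the pooled libraries Id2 over Tcf12 was 0.627 (0.489 to 0.802). These intervals come from reads of 1 library per condition and are not adjusted over the 6 pairs.

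Reads outside the sites separated Tcf12 from the other windows. Outside sites the ratio was 0.967 (0.902 to 1.04) at Id3, 0.973 (0.906 to 1.05) at Id2 and 0.897 (0.826 to 0.975) at Tcf3, but 1.40 (1.32 to 1.49) at Tcf12. The ratio in sites divided by the ratio outside them was 2.19 (1.89 to 2.54) at Tcf3, 1.84 (1.56 to 2.17) at Id3, 1.22 (0.959 to 1.56) at Id2 and 1.22 (1.06 to 1.41) at Tcf12. By this division Tcf12 had the value of Id2, while by site reads alone its ratio was near that of Id3.

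The ratio outside sites moved with read density across the genome. In 25189 windows of 100 kb its median was 0.998. In the 20% of windows with the fewest reads outside sites it was 1.23, and in the 20% with the most it was 0.884. Averaged over the libraries, Id3 had 86.7 RPM outside sites per 100 kb, Id2 68.5 and Tcf3 89.0, all in the densest 20%. Tcf12, with 38.6, lay in the next 20%, where the median ratio was 0.905 and 95% of windows were below 1.18. Its ratio of 1.40 was above that bound, and 94.9% of all windows had a lower one, although the Tcf12 window is longer than those compared. With the window's density outside sites subtracted from its site reads, the Tcf12 site ratio was 1.73, and by the same step it was 1.93 at Id3, 1.23 at Id2 and 2.02 at Tcf3. Subtraction thus left the Tcf12 ratio where it was, while division brought it to the value of Id2.

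**Figure D4:**
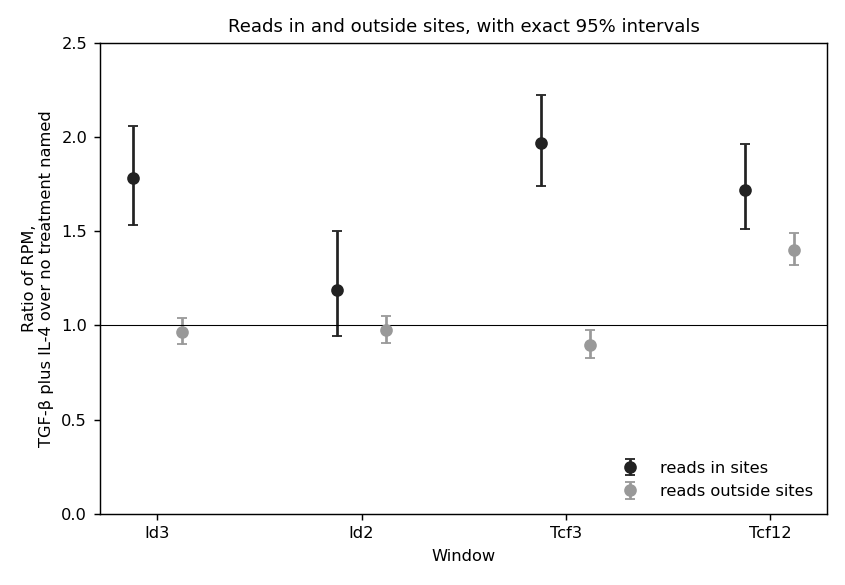
Ratio of RPM (TGF-β/IL-4 over no treatment named, linear scale from 0) for reads in sites (black) and outside sites (grey) of each window, with exact 95% intervals of counting error. Reads in sites stand above those outside in every window, from 1.97 against 0.897 at Tcf3 to 1.72 against 1.40 at Tcf12, and the 2 intervals overlap at Id2.

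Over all reads of a window, in and outside sites, the ratios were nearer to 1 at Id3, Id2 and Tcf3 than over sites. The whole-window ratio was 1.08 (1.02 to 1.15) at Id3, 0.991 (0.926 to 1.06) at Id2, 1.15 (1.08 to 1.23) at Tcf3 and 1.45 (1.38 to 1.53) at Tcf12. Sites covered between 1.05% (Tcf12) and 2.49% (Id3) of a window. They nevertheless held 40.7% of the reads of the Tcf3 window with TGF-β/IL-4 (Wilson 95% interval 38.3% to 43.2%) and 23.8% (22.0% to 25.8%) with no treatment named. At Id3 the shares were 23.2% (21.2% to 25.2%) and 14.1% (12.8% to 15.6%). At Id2 they were 9.86% (8.41% to 11.5%) and 8.21% (7.11% to 9.47%), and at Tcf12 18.7% (17.3% to 20.2%) and 15.8% (14.5% to 17.2%).

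The 200-bp bins, which need no site calling, gave the same order of the loci as their strongest sites, by the mean of the libraries and with TGF-β/IL-4. The strongest Tcf3 bin held 12.9 RPM (exact Poisson 95% interval 11.5 to 14.5) and 21.6 RPM (19.3 to 24.0). The strongest Tcf12 bin, chr9:71946000-71946199, held 4.53 RPM (3.70 to 5.49) and 6.49 RPM (5.29 to 7.89). The strongest Id3 bin by mean, chr4:135679000-135679199, held 1.70 RPM (1.21 to 2.32) and 5.08 RPM (4.02 to 6.33), a ratio of 2.99 (2.01 to 4.51). At Id2 the strongest bin, chr12:25726000-25726199, held 1.92 RPM (1.39 to 2.57) and 1.99 RPM (1.35 to 2.83). With no treatment named the highest Id3 bin held 1.74 RPM (1.24 to 2.37), under the Id2 bin and within counting error of it, while with TGF-β/IL-4 the Id3 bin was above the Id2 bin with intervals that do not overlap.

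Bins of at least 1 RPM made up a larger share of every window than of the genome, most of all at Id3. At Id2 they were few. Their share there was close to that of the genome with TGF-β/IL-4, and above that of Tcf12 with no treatment named. The 3 strongest Tcf3 bins all overlap its 1 strong site, so they are not separate occurrences. With TGF-β/IL-4 they made up 2.40% of the 500 Id3 bins, 1.14% of the 350 Tcf3 bins, 0.839% of the 1550 Tcf12 bins and 0.500% of the 600 Id2 bins, against 0.405% in the genome. With no treatment named the shares were 1.60%, 0.857%, 0.452% and 0.667%, against 0.246%. Id2 was the window with fewer such bins in the TGF-β/IL-4 library (3) than in the other (4). Of the bins at 1 RPM or more in either library, 12 of 13 at Id3, 4 of 4 at Id2, 3 of 4 at Tcf3 and 14 of 14 at Tcf12 overlapped a site.

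At the 21 sites found in both libraries the summits lay a median of 20 bp apart and at most 100 bp, within joined sites that bound this distance. Across bins the RPM of the libraries had a Pearson correlation of 0.97 at Tcf3, 0.82 at Tcf12, 0.79 at Id3 and 0.66 at Id2, and outside sites between 0.32 (Tcf3) and 0.56 (Id3). Bins of a window share mappability and base composition, and at Tcf3 a single site sets the value. The share of reads with the top mapping quality was lowest at a weak Id3 site, chr4:135670911-135671070. There 36.8% and 25% of the 19 and 16 reads had it. Other sites were also under the shares of all reads, 87.8% and 88.3%. They included the second Id3 site, chr4:135700291-135700700 (84.8% and 73.0%), and the Tcf12 site chr9:71892661-71892860 (71.4% and 57.1%). The Tcf3 site past the size rule, chr10:79852901-79853030, was under them too. Which gene a site belongs to was not determined, and neighbours can share these windows. In the GRCm38 order of RefSeq the nearest protein-coding genes are Rpl11 and E2f2 for Id3, Kidins220 and Rnf144a for Id2, Uqcr11 and Onecut3 for Tcf3, and Cgnl1 and Zfp280d for Tcf12.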

How the data were processed

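Per the submitters' processing notes, Bowtie2 and CASAVA 1.0 were used with the mm9 build; settings are not given in the sources used here. The authors deposited 1 line per aligned read of 25 bp with a mapping quality score, from 11 to 42, and 0 reads shared a position and strand. No input library was used here.

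Reads on chromosomes 1 to 19 and the sex chromosomes were counted by fragment centre, 63 bp inwards of the 5′ end. To find sites, coverage was computed every 10 bp over the genome and compared with a Poisson rate (that of the genome or of the surrounding 10 kb, whichever was larger), with q under 0.01 after Benjamini-Hochberg adjustment. The deeper library was thinned to 15561681 reads for this step. Gaps of up to 100 bp were closed, stretches under 100 bp or with under 20% of reads on a strand were dropped, and overlapping sites of the libraries were joined. All reads were then counted. Ratios carry exact Clopper-Pearson intervals, ratios of ratios exact conditional ones and shares Wilson ones. Reads amplified by PCR carry no molecular identifiers here and may not be independent. The procedures were tested on simulated data.

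The windows, lists and tests were chosen with earlier results of these data known. Named sites are the 4 strongest of each window and every site past the size rule. Promoters were planned to be shown only where a site could be placed on them, and are printed as reference without that. Other family genes and proteins were not analysed here. Python 3.11.15, numpy 2.4.6, scipy 1.17.1, pandas 2.3.3 and matplotlib 3.10.9 were used.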

Additional observations from a re-analysis of the deposited data

How the results depend on the processing

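No paired analysis was possible because each condition has 1 library. Of the values recomputed under an alternative, 148 stayed within their interval or within 1.5 times for counts, 54 moved and 2 reversed. The 148 include counts of higher or lower sites that were 0 and stayed 0, and alternatives chosen after the data were seen. They are therefore no measure of how far the results hold. Scaling the shared sites to a median ratio of 1 reversed the whole-window ratios of Id3 (0.806) and Tcf3 (0.859) and moved those of Id2 (0.739) and Tcf12 (1.08). It also lowered the site ratios to 1.33 at Id3, 0.888 at Id2, 1.47 at Tcf3 and 1.28 at Tcf12, by the construction of the scaling, and left 0 higher sites at Id3, 0 at Tcf3 and 3 at Tcf12. A q under 1e-05 left 6, 1, 1 and 12 sites at Id3, Id2, Tcf3 and Tcf12, raised the Id3 site ratio to 2.18, and gave 5 higher sites at Id3, 0 at Tcf3 and 0 lower at Tcf12. With top-quality reads only, Tcf3 had 3 sites, 2 of them higher, Id2 had 1 higher site and Tcf12 had 0 lower ones. The lower Tcf12 site was also lost with a second thinning (0) and with pooled calling (0), which gave 0 higher sites at Tcf3. A ratio of 1.5 gave 6 higher sites at Id3 and 2 at Tcf3, scaling by reads outside sites 2 at Tcf3, and fragments of 200 bp 1 at Id3. Apart from the scaling of shared sites, the share of genome sites past the rule is not given for these alternatives. Their counts of higher and lower sites are therefore no result about the loci. Leaving out the strongest site, or keeping only sites found in both libraries, both chosen after seeing the data, kept all 4 site ratios within their intervals. At Tcf3 neither is a check. Its only site found in both libraries is the strongest one, which sets the main ratio. The 4 sites left without it were found in the TGF-β/IL-4 library alone, which favours a ratio above 1. Bins moved by 100 bp gave 10.2 and 18.6 RPM for the strongest Tcf3 bin, and fragments of 200 bp 3.57 and 4.88 RPM for the strongest Tcf12 bin. Densities fall by construction when fewer sites are kept. With sites of at least 2 RPM they were 4, 0.833, 1.43 and 0.645 sites per 100 kb at Id3, Id2, Tcf3 and Tcf12, and with a q under 1e-05 6.00, 0.833, 1.43 and 3.87. Site RPM per 100 kb with no treatment named was then 8.88 and 7.71 at Id3, 1.52 and 1.38 at Id2, and 2.11 and 4.72 at Tcf12. With TGF-β/IL-4 it was 16.9 and 16.8 at Id3, 1.93 and 1.82 at Id2, 53.0 and 52.5 at Tcf3, and 3.13 and 8.33 at Tcf12. The cause of the other moves was not tested. Limits on these loci include the single library per condition, the choice of scaling, the position limit at the Tcf3 summit, few reads at the weak sites, and sites found in 1 library alone.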
